A study of Mus musculus with 6 samples.

Results

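The genes described here are the kinases and adaptors that act directly beneath the B cell receptor. They were chosen as all probe sets whose single annotated gene symbol is on a list of 10 intracellular signalling genes. Of these, 9 genes were measured, by 20 of the 34945 probe sets that carry 1 gene symbol: Syk and Btk (4 and 1 probe sets), Blk (1), Blnk (1), Grb2 (2), Plcg2 (1), Pik3cd (6), Rasgrp3 (2) and Ptpn6 (2). A further gene of the list was not analysed here. The arrays measured total RNA of bone marrow B cells from untreated C57BL/6 mice of mixed sex, aged 8 to 12 weeks. Before sorting on surface Igκ or Igλ, cells that bore CD3, Ter119, CD11b, DX5 or Gr1 were removed. The 3 groups held 2 arrays each. TAK1-deficient Igκ+ cells carried mb-1/TAK1f/f, while wild-type Igλ+ and wild-type Igκ+ cells carried mb-1/TAK1+/+. All groups therefore share mb-1, an older name of the B cell gene Cd79a that is commonly used to drive Cre in B cells, although the labels name no Cre and do not say in what share of cells TAK1 was lost. They also do not say whether the 2 samples of a group came from separate mice, so the p-values rest on the spread of these samples alone, and that spread could be technical.

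When antigen engages the B cell receptor, kinases of the Src family, such as Blk, phosphorylate its signalling chains, and Syk docks there and becomes active. Syk phosphorylates the adaptor BLNK, which brings Btk together with phospholipase Cγ2, and the resulting second messengers reach calcium, protein kinase C and RasGRP3. Phosphoinositide 3-kinase δ supplies the membrane lipid that recruits Btk, Grb2 links the complex to Ras activation, and the phosphatase SHP-1 restrains it. TAK1, a kinase encoded by Map3k7, acts further downstream, between these receptors and NF-κB and MAP kinases.

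Promoter sequences were matched for 8 of the 9 genes (13 promoters, RefSeq, GRCm38.p6, each from 250 bases before to 50 bases after a gene start). The 4 printed here, each from the most upstream start, belong to the genes that stood at the 2 ends of the order of differences described further on. As deposited and at the brightest probe set of each gene, Syk and Plcg2 fell least and Grb2 and Rasgrp3 most. Capitals mark every match, on either strand, to the ETS-type site GAGGAA, the octamer ATTTGCAT, the E-box CAGGTG or the κB site, and no matches overlapped. Of ETS-type sites only GAGGAA was searched for, and the shorter core GGAA was not.
Syk, chr13:52583187-52583486, plus strand: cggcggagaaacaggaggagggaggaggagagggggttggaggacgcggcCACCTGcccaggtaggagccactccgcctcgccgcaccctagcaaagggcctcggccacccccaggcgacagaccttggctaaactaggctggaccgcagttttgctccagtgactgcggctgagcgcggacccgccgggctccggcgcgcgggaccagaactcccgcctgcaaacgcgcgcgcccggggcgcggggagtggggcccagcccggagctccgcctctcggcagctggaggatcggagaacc
Plcg2, chr8:117498025-117498324, plus strand: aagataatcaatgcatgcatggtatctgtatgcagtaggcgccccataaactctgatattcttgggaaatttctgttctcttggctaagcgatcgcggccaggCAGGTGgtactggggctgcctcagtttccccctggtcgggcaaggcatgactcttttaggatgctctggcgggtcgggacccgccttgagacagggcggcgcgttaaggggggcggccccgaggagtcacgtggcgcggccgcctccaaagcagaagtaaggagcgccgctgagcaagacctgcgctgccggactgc
Grb2, chr11:115699879-115700178, minus strand: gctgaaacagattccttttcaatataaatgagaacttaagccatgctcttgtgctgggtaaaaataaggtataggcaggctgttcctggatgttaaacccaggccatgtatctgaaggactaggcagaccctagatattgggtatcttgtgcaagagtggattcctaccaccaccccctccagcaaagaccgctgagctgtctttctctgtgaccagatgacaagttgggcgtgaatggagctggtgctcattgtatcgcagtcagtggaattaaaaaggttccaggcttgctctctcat
Rasgrp3, chr17:75435655-75435954, plus strand: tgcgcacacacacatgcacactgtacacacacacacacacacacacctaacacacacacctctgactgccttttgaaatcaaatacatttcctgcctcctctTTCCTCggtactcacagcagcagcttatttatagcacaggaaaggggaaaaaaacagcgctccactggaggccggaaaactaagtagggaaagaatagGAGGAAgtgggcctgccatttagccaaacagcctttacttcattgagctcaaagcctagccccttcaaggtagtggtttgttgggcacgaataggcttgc
Over all 13 promoters, the E-box was found in 7, GAGGAA in 4, the octamer in 1 (Blnk) and the κB site in 1 (a downstream start of Pik3cd). Among 32851 promoters of the same length the shares were 20.2% for the E-box, 28.3% for GAGGAA, 1.74% for the octamer and 8.46% for the κB site. In the printed windows the Syk and Plcg2 promoters each hold 1 E-box, and the Rasgrp3 promoter holds 2 GAGGAA sites. The Grb2 window holds none of the 4 motifs as searched. The second Grb2 start, chr11:115699485-115699784, has 3 GAGGAA sites. These are letter matches only, and no binding was measured.

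The TAK1-deficient arrays stood apart from the other 4 as whole arrays, which touches every difference with them. Their median signals were 324 and 323, while those of the wild-type arrays ranged between 44.9 and 59.1. The spiked hybridization controls read 47043 and 41197 (geometric mean signal) on the TAK1-deficient arrays and between 3985 and 4608 on the wild-type arrays, and Actb, read at its 3′ over its 5′ end as a measure of RNA quality, gave ratios of 6.28 and 4.18, against 1.25 to 1.58. All 7 measured B cell markers were above the unspiked control signal on every array. Their summed signals were 60399 and 69301 on the TAK1-deficient arrays and between 47216 and 50307 on the wild-type arrays. Against wild-type Igκ+ cells 3 of these 7 were called higher and 1 lower (limma, Benjamini-Hochberg), beside 26.1% and 49.8% of all genes tested. Summed T cell marker signals were 5336 and 5810 on the TAK1-deficient arrays and between 208 and 543 on the others, with Bcl11b the brightest of them at 2431 and 2313 on the TAK1-deficient arrays. Of 10 T cell markers, 7 were above the unspiked controls on both TAK1-deficient arrays and 2, Cd3d and Lat, on neither. On both wild-type Igκ+ arrays 6 were above them, and on both wild-type Igλ+ arrays 4. The unspiked control level was lower on the wild-type arrays. Summed stromal and endothelial markers were 5904 and 6146 in TAK1-deficient samples and 1026 to 1313 in wild-type samples. Pecam1 was the only 1 of these 8 markers to go the other way. It had 522 and 381 in TAK1-deficient samples, against 982 and 1060 in wild-type Igκ+ samples. Summed granulocyte markers were 8517 and 9089 in TAK1-deficient samples and 317 to 37381 in wild-type samples. The part of these differences in the results below was not tested. Map3k7, the targeted gene, had signals of 346 and 599 in TAK1-deficient Igκ+ cells, against 2196 and 1805 in wild-type Igκ+ cells, a log2 difference of -2.09 ± 0.27 (SE; limma, Benjamini-Hochberg adjusted p = 0.000184). With the level adjustment described below it was -0.62 (limma adjusted p = 0.0788). Where its probes lie relative to the floxed part is not given in the sources used here.

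Read at the brightest probe set of each gene, transcripts of all 9 measured genes were lower in TAK1-deficient than in wild-type Igκ+ cells on the deposited scale. The log2 differences lay between -0.60 (Syk) and -2.54 (Rasgrp3). Another well-detected probe set did not fall for Rasgrp3 (0.17, not passed) or Pik3cd (1.51, called higher). Neither Syk nor Plcg2 passed with quantile normalization (0.06 and 0.03, limma adjusted p = 0.75 and 0.879), and both were called higher with the level adjustment described below. Grb2 and Rasgrp3 kept 17.4% and 17.3% of the wild-type Igκ+ signal, Pik3cd 23.2% and Btk 30.5%. Ptpn6, Blnk and Blk kept 39.2%, 42.3% and 43.1%, and Plcg2 and Syk 60.6% and 65.7%. The members' median log2 difference was -1.33, beside -0.70 over the 11696 genes tested. Of those genes 49.8% were called lower and 26.1% higher in the same comparison. Genes this bright fell more often still. In the top decile of wild-type Igκ+ level, which held 8 of the 9, the median over all genes was -1.28 and 82.3% were called lower. In the ninth decile, which held Pik3cd, the median was -1.54 and 92.1% were called lower, so a count of 9 of 9 lower is near what genes of that level showed. In RNA of sorted cells, fewer cells that express a gene and less RNA per cell cannot be told apart.

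**Figure D1:**
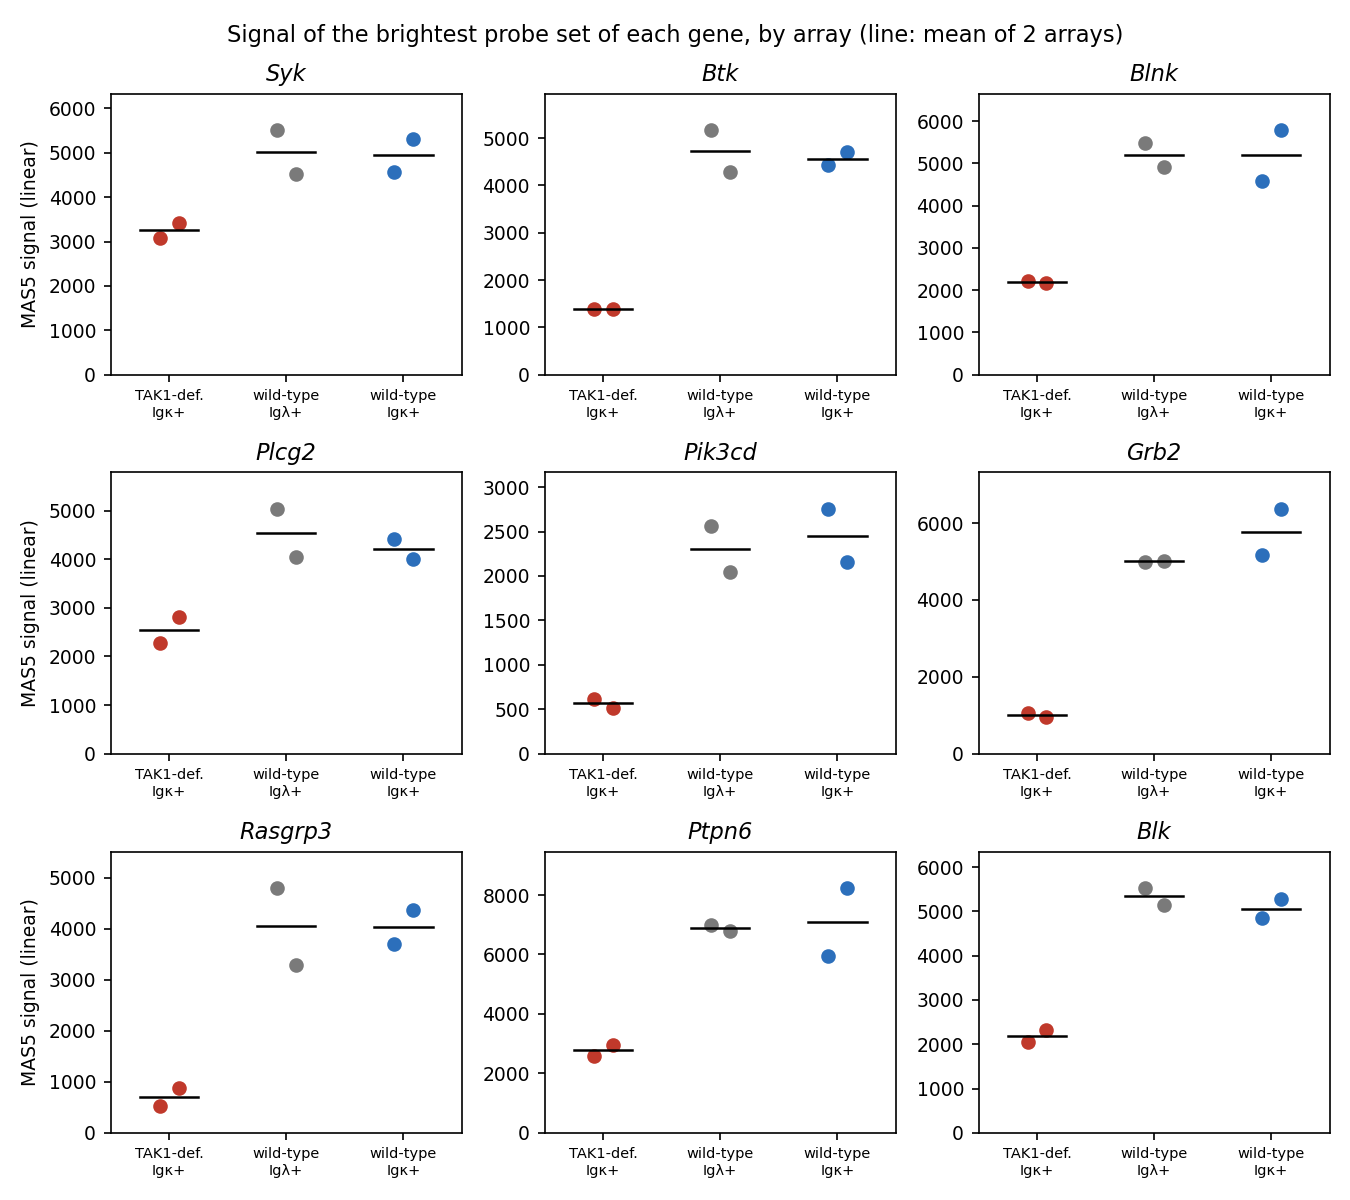
Deposited MAS5 signal (linear, arbitrary units) of the brightest probe set of each gene, with 1 point per array and a line at the mean of the 2 arrays, for TAK1-deficient Igκ+, wild-type Igλ+ and wild-type Igκ+ cells. In every panel both TAK1-deficient arrays lie below all 4 wild-type arrays, which holds for 55.1% of the genes tested. Syk and Plcg2 did not pass with quantile normalization and were called higher with the level adjustment.

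The receptor-proximal kinases differed among themselves. Syk, the kinase that docks on the phosphorylated receptor chains, had signals of 3076 and 3425 in TAK1-deficient Igκ+ cells, against 4576 and 5316 in wild-type Igκ+ cells. The TAK1-deficient arrays were lower without overlap, and the log2 difference was -0.60 ± 0.16 (SE, limma, adjusted p = 0.0083). Without replicate 2 of the wild-type Igκ+ cells it was -0.49 and did not pass (limma adjusted p = 0.0539). Btk, the Tec family kinase that activates phospholipase Cγ2 and is mutated in human X-linked agammaglobulinemia, had signals of 1397 and 1389 in TAK1-deficient cells, against 4433 and 4701 in wild-type Igκ+ cells. The groups lay far apart beside a close pair in each, and the log2 difference was -1.70 ± 0.15 (SE, limma, adjusted p = 2.69e-05). Blk, a Src family kinase named for its B lymphoid expression, had signals of 2042 and 2321 in TAK1-deficient cells, against 4849 and 5282 in wild-type Igκ+ cells. It was also lower without overlap, at a log2 difference of -1.21 ± 0.14 (SE, limma, adjusted p = 0.000107), which the level adjustment took to -0.01 (limma adjusted p = 0.978).

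The 2 adaptors fell by different amounts. Blnk, the scaffold that joins Syk to Btk and phospholipase Cγ2, had signals of 2228 and 2160 in TAK1-deficient Igκ+ cells, against 4589 and 5785 in wild-type Igκ+ cells. Both TAK1-deficient arrays were below both wild-type arrays, with a log2 difference of -1.23 ± 0.16 (SE, limma, adjusted p = 0.000178), which the level adjustment took to -0.02 (limma adjusted p = 0.942). Grb2, which carries SOS to the complex, had signals of 1048 and 965 in TAK1-deficient cells, against 5175 and 6360 in wild-type Igκ+ cells. Both TAK1-deficient arrays lay far below both wild-type arrays, and the log2 difference of -2.49 ± 0.16 had the smallest adjusted p of the 9 genes (SE, limma, 5.91e-06).

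Among the enzymes and exchange factors that the adaptors recruit, Plcg2 fell little and Rasgrp3 most. Plcg2, which encodes the phospholipase that makes the calcium and diacylglycerol signals, had signals of 2278 and 2819 in TAK1-deficient Igκ+ cells, against 4414 and 3998 in wild-type Igκ+ cells. The groups did not overlap, and the log2 difference was -0.73 ± 0.17 (SE, limma, adjusted p = 0.00513). Pik3cd, the catalytic subunit of phosphoinositide 3-kinase δ, had signals of 618 and 520 in TAK1-deficient cells, against 2752 and 2156 in wild-type Igκ+ cells. All 4 values were well separated, at a log2 difference of -2.07 ± 0.22 (SE, limma, adjusted p = 5.48e-05). Rasgrp3, the diacylglycerol-activated exchange factor that loads Ras, had signals of 516 and 883 in TAK1-deficient cells, against 3707 and 4359 in wild-type Igκ+ cells. Its TAK1-deficient arrays differed by 1.71 times, the widest spread between the TAK1-deficient replicates among the 9, and the log2 difference was -2.54 ± 0.28 (SE, limma, adjusted p = 7.41e-05). Ptpn6, which encodes SHP-1, the tyrosine phosphatase that inhibitory co-receptors recruit, had signals of 2595 and 2964 in TAK1-deficient cells, against 5950 and 8231 in wild-type Igκ+ cells. The inhibitory phosphatase was lower without overlap too, by -1.33 ± 0.18 (log2, SE, limma, adjusted p = 0.000192).

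**Figure D2:**
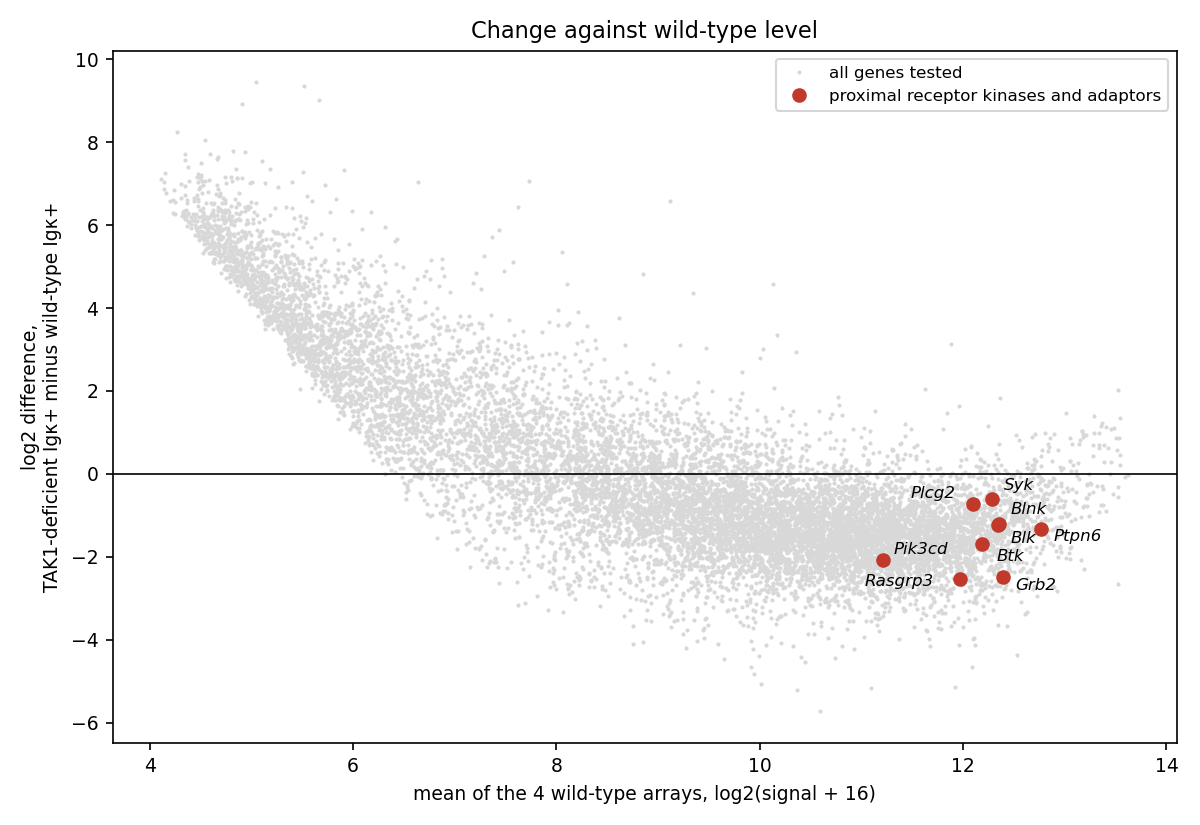
Log2 difference of TAK1-deficient minus wild-type Igκ+ cells (vertical) against the mean log2(signal + 16) of the 4 wild-type arrays (horizontal), for all 11696 genes tested (grey) and the 9 genes (red). Dim genes on the wild-type arrays lie above 0 and bright genes mostly below. Syk and Plcg2 sit at the upper side of the genes of their level, and Grb2 and Rasgrp3 at the lower side.

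Probe sets of the same gene did not all tell the same story. Over all 20 probe sets, fitted without a filter, 14 were lower, 1 was higher and 5 did not pass (limma, Benjamini-Hochberg over 34945 probe sets). Of all these probe sets 26.1% were called lower and 50.8% higher, and the median over them was 1.06, beside -1.22 for the members. That background includes the dim probe sets. With the 40th percentile filter the median was -0.34, beside -1.28 for the 18 member probe sets left. Of the probe sets that passed it 41.3% were called lower and 31.1% higher. Rasgrp3 and Pik3cd each had probe sets that disagreed. The second Rasgrp3 probe set, 1438031_at, had signals of 1685 and 1734 in TAK1-deficient Igκ+ cells, against 1438 and 1604 in wild-type Igκ+ cells. Both TAK1-deficient arrays were slightly above, but the log2 difference of 0.17 ± 0.22 (SE) did not pass (limma adjusted p = 0.498), while 1438030_at carried the fall of 2.54 given above. The call of 1438031_at depended on the scaling: it was higher with quantile normalization (0.89, limma adjusted p = 0.00755) and the level adjustment (1.5, limma adjusted p = 0.00189) and lower after median centring (-2.21) and spike-in scaling (-3.24). For Pik3cd, 1446770_at had signals of 504 and 573 in TAK1-deficient cells, against 204 and 155 in wild-type Igκ+ cells. It was the 1 member probe set called higher, at 1.51 ± 0.29 on the log2 scale (SE, limma, adjusted p = 0.00221), but under none of the other 4 scalings: it did not pass with quantile normalization (0.40, limma adjusted p = 0.245) or the level adjustment (0.69, limma adjusted p = 0.112) and was lower with median centring (-0.87) and spike-in scaling (-1.73). Of the other Pik3cd probe sets, 1422992_s_at fell by 1.51 (a call lost without replicate 2 of the TAK1-deficient cells, limma adjusted p = 0.0704, or replicate 1 of the wild-type Igκ+ cells, 0.0547). Another, 1422991_at, was at -1.37 without passing as deposited and was called lower under the other 4 scalings. Its signals were 11.3 and 85.4 in TAK1-deficient cells, the first under the unspiked controls of its array. Without replicate 2 of the TAK1-deficient cells it was at -2.32, which rests on that first array. The probe sets 1443798_at and 1458321_at were not above the unspiked controls on any array, so they have no usable level. With the mean over all 6 probe sets, those 2 included, Pik3cd was at -0.31 and did not pass (limma adjusted p = 0.335). With the mean over the 4 detected ones, an alternative chosen after seeing the data, it was at -0.86 (limma adjusted p = 0.0126).

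Syk had 4 probe sets, of which 3 fell as deposited. Fitted among all probe sets, the brightest, 1418261_at, lost its call without the trend (limma adjusted p = 0.0611). The second Syk probe set, 1418262_at, gave 3087 and 2669 in TAK1-deficient Igκ+ cells, against 3593 and 4737 in wild-type Igκ+ cells, a small gap (log2 difference -0.52, limma adjusted p = 0.0295). That call was lost without replicate 2 of the wild-type Igκ+ cells (-0.32, limma adjusted p = 0.169), without replicate 2 of the TAK1-deficient cells (-0.42, limma adjusted p = 0.144) and without the trend (limma adjusted p = 0.109), and with the level adjustment the probe set was called higher (0.80, limma adjusted p = 0.0141). The dim 1425797_a_at gave 104 and 58.6 in TAK1-deficient cells, the second under the unspiked controls of its array, against 323 and 649 in wild-type Igκ+ cells (log2 difference -2.33, limma adjusted p = 0.0023). The fourth, 1457239_at, gave 696 and 663 in TAK1-deficient cells, against 425 and 400 in wild-type Igκ+ cells. It was the only Syk probe set above wild type as deposited, by 0.70, and did not pass (limma adjusted p = 0.0819). With the level adjustment 1457239_at was called higher (0.99, limma adjusted p = 0.0471), as in the fit of only the 4 arrays compared (limma adjusted p = 0.0229). It was lower with median centring (-1.68) and spike-in scaling (-2.61). The second Grb2 probe set, 1449111_a_at, fell by 1.86 and the second Ptpn6 probe set, 1456694_x_at, by 0.65, both called lower and both less than their brighter partners. With the level adjustment the Grb2 probe set did not pass (-0.38, limma adjusted p = 0.133) and the Ptpn6 one was called higher (0.81, limma adjusted p = 0.0102). The Ptpn6 call was also lost with quantile normalization (-0.08, limma adjusted p = 0.744), without replicate 1 of the TAK1-deficient cells (limma adjusted p = 0.067) and without replicate 1 of the wild-type Igκ+ cells (limma adjusted p = 0.0855).

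**Figure D3:**
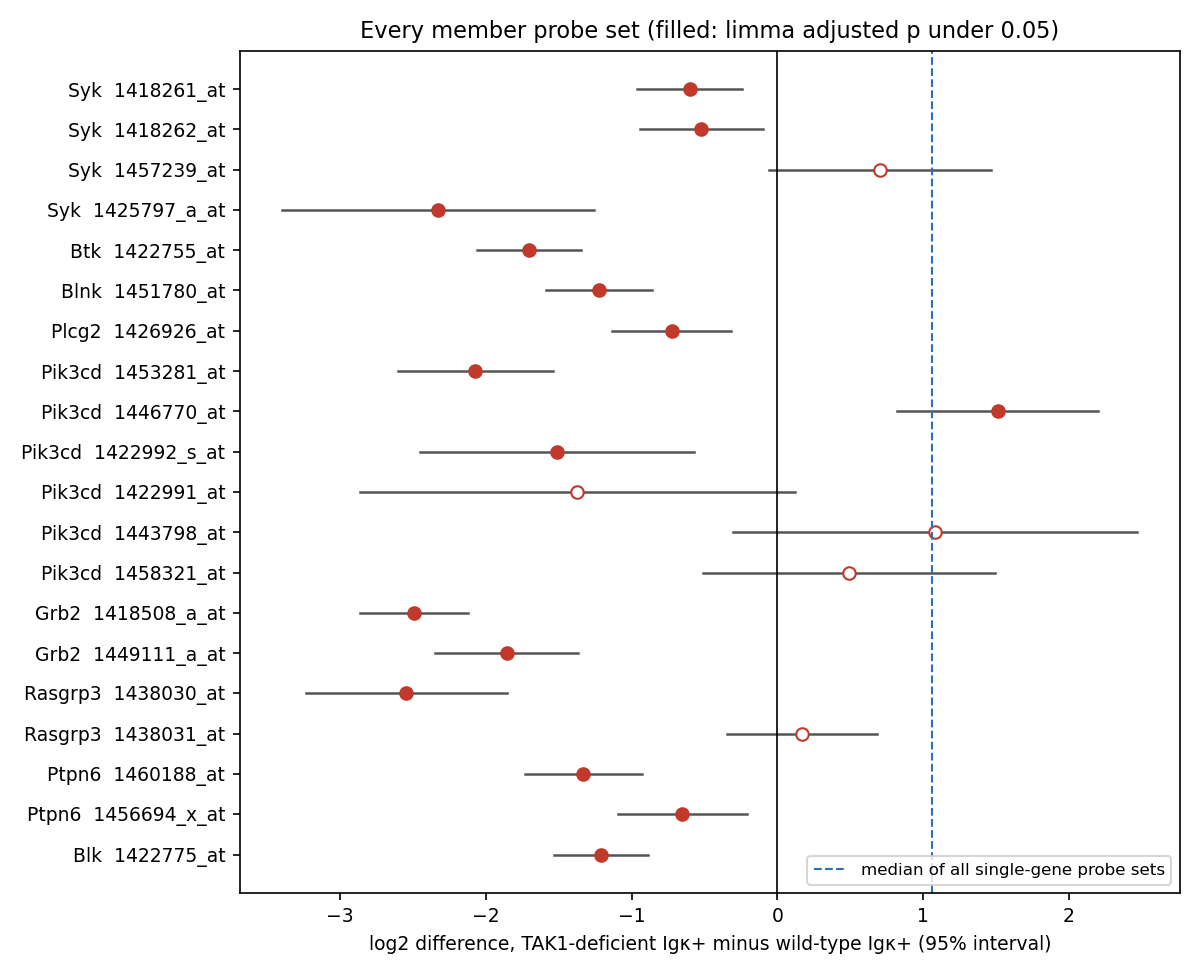
Log2 difference of TAK1-deficient minus wild-type Igκ+ cells for each of the 20 probe sets, with its 95% interval from limma. Filled points passed an adjusted p of 0.05 and open points did not. The dashed line marks the median of all single-gene probe sets without a filter, 1.06. With the 40th percentile filter that median was -0.34. Only 1446770_at of Pik3cd passed above 0, and under the other 4 scalings it did not pass or lay below 0.

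A ratio of 2 probe sets on the same array does not depend on a single scaling factor for that array, although quantile normalization and the level adjustment can change it. Among 9 pairs within a gene whose probe sets exceeded the unspiked controls on at least 5 arrays, 6 separated the TAK1-deficient from all 4 wild-type arrays, beside 75% of 10666 such pairs over all genes. The log2 ratio of the Rasgrp3 probe sets, 1438030_at over 1438031_at, was -1.71 and -0.97 in TAK1-deficient samples and between 1.37 and 1.62 in all wild-type samples. That of Pik3cd 1453281_at over 1446770_at was 0.29 and -0.14 in TAK1-deficient samples and between 3.68 and 3.80 in all wild-type samples. The exact two-sided permutation p was 0.0667 in both, which is the smallest that 2 against 4 arrays can give, and 0.1 after Benjamini-Hochberg adjustment over the 9 pairs. The 2 readings of Rasgrp3 and of Pik3cd differed against each other between the genotypes by -2.84 and -3.68 on the log2 scale as deposited, by -3.50 and -2.71 with quantile normalization and by -2.79 and -1.25 with the level adjustment. Whether these genes fell as deposited, and by how much, thus depends on which probe set is read. The ratio of the 2 bright Syk probe sets overlapped, with a difference of -0.07 (exact permutation p = 0.667).

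The same comparison on 1 array was made between genes, as the log2 signal of each gene minus the mean of the 9 on that array. Only the differences of these values between arrays are read here. Syk stood at 1.04 and 1.06 in TAK1-deficient samples and at 0.05 to 0.15 in wild-type samples, and Plcg2 at 0.60 and 0.78, against -0.28 to 0.02. Both had thus gained on the mean of the 9, by 0.94 and 0.77 log2 units. Grb2 stood at -0.52 and -0.77 in TAK1-deficient samples and at 0.0017 to 0.39 in wild-type samples, and Rasgrp3 at -1.54 and -0.90, against -0.37 to -0.05. They lost 0.86 and 1.01 log2 units relative to that mean. Blnk, Blk and Ptpn6 were higher by 0.32, 0.30 and 0.23, and Btk and Pik3cd were lower by 0.18 and 0.51. The TAK1-deficient arrays did not overlap the wild-type arrays for any of the 9 genes, 5 higher and 4 lower. Set against the same mean of the 9, 60.4% of all genes tested were higher and 14.5% lower without overlap, so separation in this measure was common. The exact two-sided permutation p was 0.0667 for 8 of them, the smallest possible, and 0.133 for Ptpn6 (0.075 and 0.133 adjusted over the 9), so no gene could pass 0.05 in this test. The 9 values on an array sum to 0 by construction, so gains must be matched by losses.

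**Figure D4:**
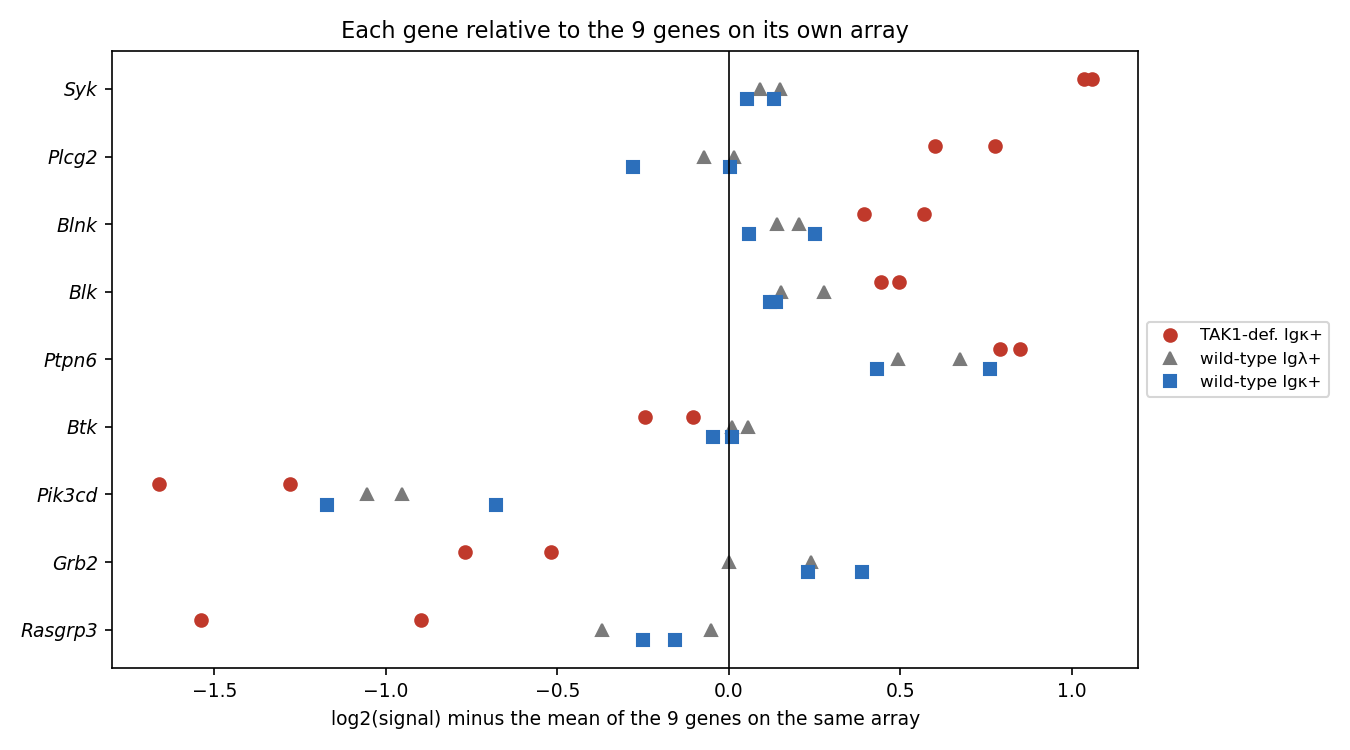
Log2 signal of each gene minus the mean of the 9 genes on the same array, with 1 point per array. TAK1-deficient Igκ+ arrays (circles) lie above all wild-type Igλ+ (triangles) and Igκ+ (squares) arrays for Syk, Plcg2, Blnk, Blk and Ptpn6, and below them for Btk, Pik3cd, Grb2 and Rasgrp3.

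How the arrays were set side by side moved the differences and some of the calls. The median over all genes tested was -0.70 as deposited, -1.02 with quantile normalization, -3.08 with median centring, -3.94 with scaling on the spiked controls and 0.03 with the level adjustment, a lowess fit that removes the trend of each TAK1-deficient array against the wild-type level. The share of higher genes among all genes called was 34.4%, 24.4%, 12.9%, 9.29% and 57.8% in the same order. Relative to those medians Grb2 was at -1.79, -1.05, -1.79, -1.93 and -1.33, and Rasgrp3 at -1.84, -1.51, -1.84, -1.94 and -1.23. Syk was at 0.10, 1.08, 0.10, -0.09 and 0.60. With the level adjustment Grb2 (-1.30, limma adjusted p = 0.000714) and Rasgrp3 (-1.20, limma adjusted p = 0.00661) were still called lower, Syk (0.63, limma adjusted p = 0.0107) and Plcg2 (0.57, limma adjusted p = 0.0195) were called higher, and the remaining 5 did not pass, with Blk and Blnk near 0, Ptpn6 at -0.28, Btk at -0.44 and Pik3cd at -0.58. Median centring moves every gene alike and spike-in scaling nearly so, which fixes the order of the genes, while quantile normalization and the level adjustment can change it. As deposited and under both of these Syk ranked 1 and Plcg2 ranked 2 from the highest difference, Blk, Blnk, Ptpn6 and Btk followed in that order, and Pik3cd, Grb2 and Rasgrp3 took ranks 7 to 9.

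**Figure D5:**
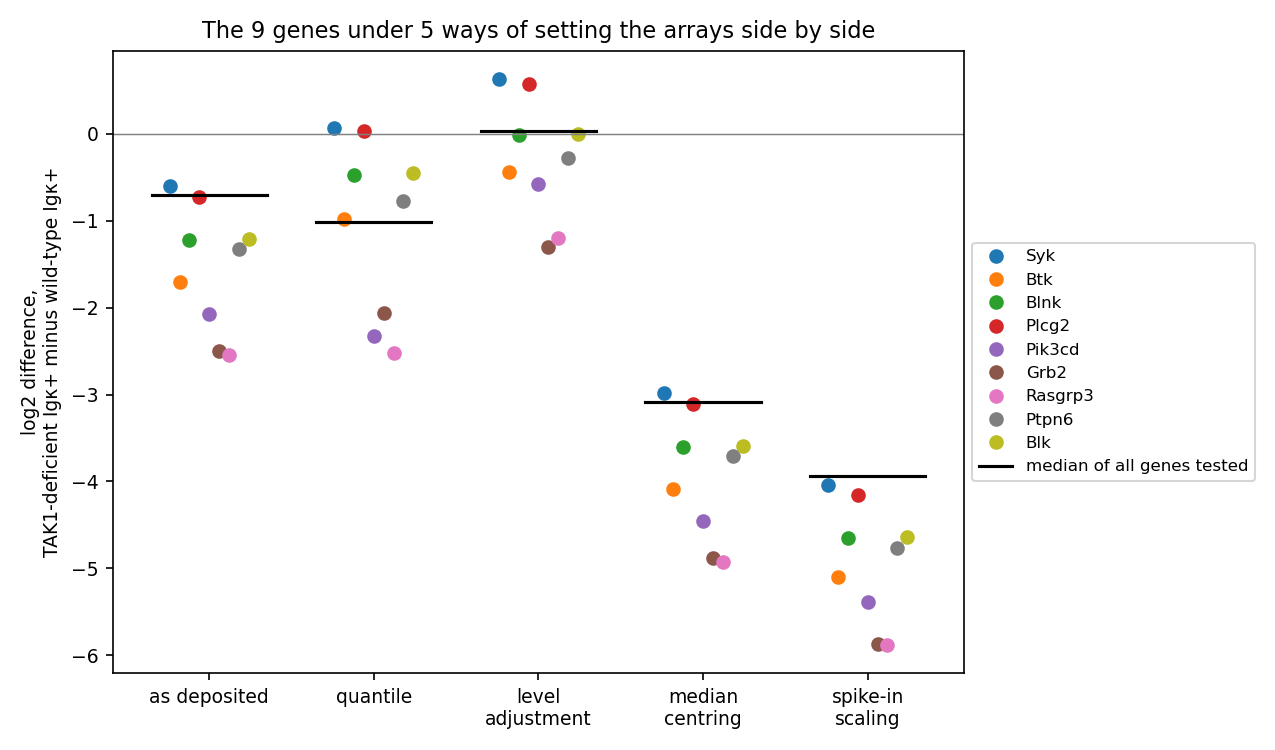
Log2 difference of TAK1-deficient minus wild-type Igκ+ cells for the 9 genes under 5 ways of setting the arrays side by side, with a bar at the median of all genes tested. Syk and Plcg2 are the highest points of each column, near 0 with quantile normalization and above 0 with the level adjustment, and the spread of the 9 genes differs between columns.

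The comparison of the wild-type groups asked whether the light chain a cell uses goes with the expression of these genes. No difference between wild-type Igλ+ and Igκ+ cells passed the test for any member. Of the 9 genes and of the 20 probe sets, 0 passed (limma, Benjamini-Hochberg), as did 0% of all genes in either direction, and at an unadjusted p under 0.05 limma called 0 of the 9 and 0 of the 20, beside 2.04% of all genes and 1.8% of all probe sets. Signals of wild-type Igλ+ cells were between 86.7% (Grb2) and 108% (Plcg2) of those of Igκ+ cells, and the log2 differences lay between -0.20 and 0.10.

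Grb2 had signals of 4978 and 5026 in wild-type Igλ+ cells, against 5175 and 6360 in wild-type Igκ+ cells. It was the only gene of the 9 whose groups did not overlap (lower in Igλ+, which 9.24% of all genes were), with a log2 difference of -0.20 and a 95% interval of -0.56 to 0.17. Syk had 5510 and 4532 in Igλ+ cells, against 4576 and 5316 in Igκ+ cells, and the values interleaved, with an interval of -0.35 to 0.39. Btk, at 5169 and 4286 in Igλ+ cells, against 4433 and 4701 in Igκ+ cells, had an interval of -0.31 to 0.40. Btk interleaved as well.

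Blnk, at 5479 and 4906 in wild-type Igλ+ cells, against 4589 and 5785 in wild-type Igκ+ cells, gave an interval of -0.36 to 0.38. Blk, at 5525 and 5154 in Igλ+ cells, against 4849 and 5282 in Igκ+ cells, gave -0.25 to 0.41, the narrowest of the 9. For both the arrays overlapped. Plcg2 had 5028 and 4044 in Igλ+ cells, against 4414 and 3998 in Igκ+ cells (interval -0.30 to 0.50). Pik3cd had 2568 and 2048 in Igλ+ cells, against 2752 and 2156 in Igκ+ cells (interval -0.58 to 0.41). In both genes the spread within a group exceeded the difference of the means. Ptpn6 had 6996 and 6791 in Igλ+ cells, against 5950 and 8231 in Igκ+ cells (interval -0.43 to 0.38). Rasgrp3 had 4792 and 3292 in Igλ+ cells, against 3707 and 4359 in Igκ+ cells, and the widest interval, -0.66 to 0.63. Differences of this size were not detectable with 2 arrays a group, and the absence of a call does not show equal expression. Replicate 1 of the wild-type Igλ+ cells had a summed granulocyte marker signal of 37381, against 332 on replicate 2 and 317 and 5261 on the wild-type Igκ+ arrays, and left out, still no member passed.

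Against wild-type Igλ+ cells, which differ from the TAK1-deficient cells in genotype and light chain together, 9 of 9 genes were lower (limma, Benjamini-Hochberg), beside 50.5% of all genes lower and 25.8% higher, and Syk and Plcg2 were again called higher with the level adjustment and did not pass with quantile normalization (0.02 and -0.08, limma adjusted p = 0.898 and 0.711). Pik3cd did not pass with the mean over its 4 detected probe sets (-0.60, limma adjusted p = 0.0518). The log2 differences were -0.62 for Syk, -0.83 for Plcg2, -1.23 for Blnk, -1.29 for Blk, -1.31 for Ptpn6, -1.75 for Btk, -1.99 for Pik3cd, -2.30 for Grb2 and -2.53 for Rasgrp3. This comparison shares the TAK1-deficient arrays with the one against Igκ+ cells, so its values are set beside the others and are not a repeat of them. Of the 20 probe sets 14 were lower and 1 was higher, beside 26.5% and 49.6% of all probe sets.

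Other genes of the pathway were set beside these values. For the counts below, 49.8% of all genes tested were called lower and 26.1% higher, with a median of -0.70. In deciles 7 to 10 of wild-type Igκ+ level, 80.9% to 92.1% were called lower, with medians of -1.28 to -1.54. Of the receptor chains and co-receptors, 9 of the 10 listed were tested, and 5 were lower and 2 higher in TAK1-deficient than in wild-type Igκ+ cells (limma, Benjamini-Hochberg), with a median log2 difference of -1.36 on the deposited scale, which turned to 0.06 with the level adjustment. Cd81, a tetraspanin of the cell surface, had 895 and 773 in TAK1-deficient cells, against 4741 and 6588 in wild-type Igκ+ cells (log2 difference -2.72). Fcgr2b, the inhibitory Fc receptor, had 742 and 752 in TAK1-deficient cells, against 3845 and 4589 in wild-type Igκ+ cells (-2.47). Both fell under all 5 scalings. Cd79b, a signalling chain of the receptor, had 15504 and 16459 in TAK1-deficient cells, against 9747 and 10878 in wild-type Igκ+ cells (0.63). Cd72, a co-receptor that recruits SHP-1, had 13492 and 15266 in TAK1-deficient cells, against 7265 and 7366 in wild-type Igκ+ cells (0.97). Both directions depended on the scale: they were lower with median centring (-1.75 and -1.41) and spike-in scaling (-2.82 and -2.49), and Cd79b also with quantile normalization (-0.37).

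Of the regulators and other adaptors, 24 of 25 listed were tested, and 18 were lower and 2 higher, with a median of -1.49. The level adjustment left 4 lower and 4 higher. Sh3bp2, a Syk-binding adaptor, had 221 and 112 in TAK1-deficient cells, against 2575 and 2249 in wild-type Igκ+ cells (log2 difference -3.80). Crk, an SH2 and SH3 adaptor, had 282 and 258 in TAK1-deficient cells, against 1765 and 2095 in wild-type Igκ+ cells (-2.76). Both fell under all 5 scalings. Gab1, a docking protein, had 396 and 557 in TAK1-deficient cells, against 32.8 and 27.6 in wild-type Igκ+ cells (3.40). Its difference was 1.19 with quantile normalization, 1.07 with the level adjustment and 1.02 after median centring. Scaled on the spiked controls, it did not pass (0.42, limma adjusted p = 0.313). On the wild-type arrays alone it would not have passed the filter on low values. Cblb, a ubiquitin ligase that restrains receptor signalling, had 2787 and 3489 in TAK1-deficient cells, against 1817 and 1338 in wild-type Igκ+ cells (0.99, limma adjusted p = 0.0473), and was lower with median centring (-1.39) and spike-in scaling (-2.44).

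Of the genes of the second messenger and downstream arms, 22 of 29 listed were tested. As deposited 19 were lower and 0 higher (limma, Benjamini-Hochberg), beside 49.8% and 26.1% of all genes tested, with a list median of -1.58. The level adjustment left 10 lower and 5 higher. Map2k2, which encodes the MAP kinase kinase MEK2, had 190 and 34.3 in TAK1-deficient cells, the second under the unspiked controls of its array, against 908 and 1039 in wild-type Igκ+ cells (log2 difference -3.28). Nfatc2, a calcium-regulated transcription factor gene, had 142 and 123 in TAK1-deficient cells, against 1259 and 1604 in wild-type Igκ+ cells (-3.28). Both fell under all 5 scalings. The relatives of the members had probe sets for 20 of 23 listed genes, of which 14 passed the filter, 1 of them not on the wild-type arrays alone. Some were bright in wild-type Igκ+ cells, such as Rasgrp1 and Pik3ca with mean signals of 5537 and 3160. Of the 14, 7 were lower and 5 higher, with a median of -0.33 that turned to 0.59 with the level adjustment.

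Among those relatives the Btk relative Tec and the Grb2 relative Grap, named for the largest falls in the list, were lower like their members. Others were not: on the deposited scale the Pik3cd relative Pik3ca (0.64) and the Blk relative Fyn (1.01) were called higher. Tec had 455 and 668 in TAK1-deficient cells, against 2441 and 2761 in wild-type Igκ+ cells (log2 difference -2.20), and Grap had 221 and 287, against 2695 and 2600 (-3.31). Both fell under all 5 scalings. Grap2 (-1.81) and Rasgrp1 (-0.63) of the same list were called lower on the deposited scale, while Zap70 and Lcp2, the T cell counterparts of Syk and Blnk, were called higher. A part of T cells in these values was not tested. Zap70 had 351 and 323 in TAK1-deficient cells, against 84.6 and 31.8 in wild-type Igκ+ cells (2.35), and Lcp2, which encodes SLP-76, had 402 and 308, against 42.8 and 24.4 (2.92), and would not have passed the filter on wild-type arrays alone. Neither passed under any of the other 4 scalings, and Zap70 was below 0 with median centring and both were below 0 with spike-in scaling. In wild-type Igλ+ against Igκ+ cells, 0 genes of any of these lists passed (limma, Benjamini-Hochberg).

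The genes whose log2 profile over the 6 arrays lay nearest to the mean profile of the 9 were Pigq, Cds2 and Erp44, at root mean square distances of 0.03, 0.04 and 0.04 log2 units. Their log2 differences between TAK1-deficient and wild-type Igκ+ cells were -1.53, -1.55 and -1.57. Most of this likeness is the gap between the TAK1-deficient and the wild-type arrays, which 55.1% of the genes tested showed as lower without overlap.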

How the data were processed

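RNA of 6 mouse B cell samples was measured on Affymetrix arrays. The deposited intensities are probe set signals on a linear scale, for which the submitters' processing notes name MAS5; its version is not given in the sources used here. In the deposited table every array has a mean intensity of 500.0 after the lowest and highest 2% of values are left out, so each array carries 1 scaling factor and distributions were not matched. A low-signal array scaled this way can have a raised background. Unscaled signals are not among the values used here, so whether that holds for the TAK1-deficient arrays was not tested. Genes were named from the platform annotation, and 932 probe sets with several genes were left out. Samples were grouped by title, the suffix "-rep" marking replicate 2.

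Signals were taken as log2(signal + 16), which understates the change of dim genes. The brightest probe set stood for a gene, and a gene entered where its mean over the arrays exceeded the 40th percentile (11696 of 18193). All 20 member probe sets were also fitted without a filter. Groups were compared with limma 3.58.1 (R 4.3.3; lmFit over 6 arrays, 3 residual degrees of freedom, eBayes with trend, two-sided, Benjamini-Hochberg, threshold 0.05). Ratios within an array used log2 signals with no pseudocount and exact permutation tests of 2 against 4 arrays. The unspiked control level was the 95th percentile of 27 control probe sets on each array. The small number of arrays limits the precision. The code was tested on simulated data. Figures used matplotlib 3.10.9 and pandas 2.3.3 in Python 3.11.15. Alternatives were pseudocounts of 1 and 64, other filters, 4 scalings, other uses of probe sets (the mean over detected ones chosen after seeing the data), no trend, 4 arrays only, a replicate block and leaving out each array.

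Named genes were all members, Map3k7, up to 2 genes a direction with the largest passing change in each pathway list, and the 3 nearest profiles. Pik3ca, Fyn, Grap2 and Rasgrp1 are named besides, chosen after their values were seen. The members, lists, tests and alternatives were chosen with earlier results of these data known. Values for Bcl11b and the granulocyte sum are given as the marker values standing out, chosen after they were seen.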

Additional observations from a re-analysis of the deposited data

How the results depend on the processing

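On TAK1-deficient against wild-type Igκ+ cells, Grb2 and Rasgrp3 kept their direction and call in 19 of 19 alternatives, Btk, Blnk, Ptpn6 and Blk in 18, Pik3cd and Plcg2 in 17 and Syk in 16. With quantile normalization Syk was at 0.0603, its second probe set at 0.22 and Plcg2 at 0.0337, and against wild-type Igλ+ cells Syk was at 0.0244. With the level adjustment the 9 genes gave 2 lower and 2 higher (against Igλ+ cells 3 and 2), the 20 probe sets 7 and 6 (8 and 5), and 2110 of all genes were lower (2224). There Syk was at 0.63 and Plcg2 at 0.57 (0.61 and 0.47 against Igλ+ cells), 1418262_at of Syk at 0.80, 1456694_x_at of Ptpn6 at 0.81, and the undetected 1443798_at and 1458321_at of Pik3cd at -2.05 and -2.65. With median centring no member probe set was higher (0 in both comparisons), 9109 genes were lower and 1346 higher (9052 and 1278 against Igλ+ cells), and 1438031_at of Rasgrp3, 1446770_at of Pik3cd, 1457239_at of Syk and 1458321_at of Pik3cd were at -2.21, -0.87, -1.68 and -1.89. With spike-in scaling 0 were higher as well, 9528 genes were lower and 976 higher (9514 and 894), and the first 3 of these probe sets were at -3.24, -1.73 and -2.61. With no filter 8811 genes were higher (8568), and with a filter at the 60th percentile 907 (944). In the fit of only the 4 arrays compared, 2 member probe sets were higher. Causes were not tested, except that the filters change how many dim genes enter.

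Leaving out 1 array at a time, the 9 genes gave 8 to 9 lower in both comparisons, with Syk the one lost, without replicate 2 of the wild-type Igκ+ cells or, against Igλ+ cells, without replicate 1 of those (-0.48, limma adjusted p = 0.0507). Without replicate 2 of the TAK1-deficient cells, 1443798_at and 1458321_at of Pik3cd were at 2.09 and 1.14 against wild-type Igκ+ cells. Neither was above the unspiked controls on any array. A lone array left in a group is assumed to vary like the others. Between the wild-type groups no member passed in any such fit, while over all genes 0 to 20 were lower and 0 to 48 higher, the 20 and 48 without replicate 2 of the Igλ+ cells and 7 lower without replicate 1. The replicate numbers share only a title suffix, with correlations of deviations of 0.01, 0.03 and 0.22 between groups. With the replicate block 9 genes were lower, 15 probe sets were lower and 1 higher, and 5828 of all genes were lower and 3087 higher. The level adjustment gives nothing for the wild-type groups, since it alters only the TAK1-deficient arrays. Blnk, Btk, Blk and Plcg2 rest on 1 probe set each. The unspiked control level was 77.7 and 75.7 on the TAK1-deficient arrays and 10.3 to 17.4 on the wild-type arrays, and lower signals have no usable level.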
